A study of Mus musculus with 4 samples.

Results

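The voltage-gated calcium channel alpha-1 subunits form the pore of each channel and decide its type. The 8 genes described here, Cacna1a, Cacna1b, Cacna1c, Cacna1d, Cacna1e, Cacna1g, Cacna1h and Cacna1i, were chosen by name as the family members of the brain and not by their values, and they make up 8 of the 32285 genes in the data. They were measured by single-nucleus RNA sequencing of the cerebral cortex of wild-type (WT) C57BL/6J mice killed as adults at postnatal day (PND) 90. From PND 22 the mice had received daily intraperitoneal risperidone, an antipsychotic that blocks dopamine D2 and serotonin 5-HT2A receptors, at 4 mg/kg or saline for 21 days. The labels put the drug-free period that followed at 43 days, which does not reach PND 90, and the methods describe it as lasting until the mice were killed. The right hemicortices of equal numbers of male and female mice were combined in 1 pool per condition, the nuclei were stained with DAPI and sorted away from debris, and nuclei of both pools were loaded on 2 Chromium lanes each. Because lanes repeat the same pool technically, each condition had n = 1. No test between conditions was possible, and a difference in preparation between the pools cannot be told apart from the treatment.

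Calcium entering through these channels couples membrane voltage to transmitter release, firing pattern and gene expression. High-voltage-activated channels open on strong depolarisation. Cacna1a encodes the pore of P/Q-type and Cacna1b that of N-type channels, which trigger release at most synapses of the forebrain. Cacna1e encodes the R-type channel, found in dendrites and some terminals. Cacna1c and Cacna1d encode the L-type channels Cav1.2 and Cav1.3, which sit on somata and dendrites and signal to the nucleus. Low-voltage-activated T-type channels, encoded by Cacna1g, Cacna1h and Cacna1i, open near the resting potential and support burst firing. The pore works with alpha2delta and beta subunits, which carry it to the membrane and tune its gating.

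The 4 lanes gave 26044 and 26385 saline nuclei and 23025 and 21099 risperidone nuclei after filtering, with a median of 3023 and 3745 against 5437 and 7476 unique molecular identifiers (UMIs, each a counted RNA molecule) per nucleus. Listed nuclei went down to 1364 and 1630 UMIs in saline but to 500 UMIs in risperidone, so shallow nuclei were present for risperidone only. Between 160 and 221 cell barcodes were shared by any 2 lanes. Clusters were named from marker genes, and each type name below stands for nuclei that resembled that type (PV-like, layer 5 ET-like and so on). The 26 genes of the pore, alpha2delta, beta and gamma subunits took no part in the clustering, while the other partner genes could. In every named type at least 3 markers exceeded 2 times the median of the other types. Fewer were highest in their own type, 0 of 6 in layer 2/3 IT-like and 0 of 5 in layer 6 CT-like nuclei. In deep-layer IT-like and layer 5 ET-like nuclei it was 1 of 5 in each. By the marker UMIs of the single nucleus, 1.03% of Vip-like, 36.8% of Sst-like, 37.2% of Lamp5-like and 58.4% of PV-like nuclei kept their name. No class was given to 14.5% of the nuclei. Layer 6b-like nuclei (1251) and microglia-like nuclei (169, of which 8 and 7 were from the saline lanes) formed clusters at a finer resolution alone, and the former overlap with the layer 6 CT-like nuclei. UMIs from other cells, estimated from markers a type should lack, made up 23.7% and 24.3% in saline against 15.8% and 15.7% in risperidone of the glutamatergic nuclei. For PV-like interneurons the estimate was 29.04% and 33.8% in saline against 15.2% and 18.4% in risperidone. Each estimate is the median over marker lists that disagreed widely. In PV-like interneurons the lists ran from 15.4 to 83.7% and 21.4 to 80.4% in saline. In risperidone they ran from 10.1 to 68.8% and 13.3 to 70.3%. In glutamatergic nuclei they ran from 22.7 to 61.8% and 20.2 to 58.9% against 11.9 to 56.7% and 9.6 to 55.7%, so the ranges of the pools overlapped. Nuclei in which Xist but no Y-linked UMI was seen made up 37.3% and 39.3% against 51.0% and 50.3%.

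On the GRCm38 build, with gene limits from GENCODE vM21, Cacna1a (ENSMUSG00000034656) lies on chromosome 8 from 84388440 to 84640246 on the plus strand, Cacna1b (ENSMUSG00000004113) on chromosome 2 from 24603887 to 24763152 on the minus strand and Cacna1e (ENSMUSG00000004110) on chromosome 1 from 154390731 to 154884501 on the minus strand. The L-type genes Cacna1c (ENSMUSG00000051331) and Cacna1d (ENSMUSG00000015968) lie on chromosome 6 from 118587240 to 119196418 on the minus strand and chromosome 14 from 30039939 to 30491455 on the minus strand. The T-type genes Cacna1g (ENSMUSG00000020866), Cacna1h (ENSMUSG00000024112) and Cacna1i (ENSMUSG00000022416) lie on chromosome 11 from 94408391 to 94474198 on the minus strand, chromosome 17 from 25374285 to 25433783 on the minus strand and chromosome 15 from 80287238 to 80398279 on the plus strand. The genes are long. The gene bodies, which nuclear RNA covers with introns included, span 609 kb for Cacna1c, 494 kb for Cacna1e, 452 kb for Cacna1d, 252 kb for Cacna1a, 159 kb for Cacna1b, 111 kb for Cacna1i, 65.8 kb for Cacna1g and 59.5 kb for Cacna1h. The median over genes measured in all nuclei was 50.9 kb, so that every member lay above it.

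RefSeq promoter windows on GRCm38.p6 were found for 5 of the 8 members, and 3 are shown to set side by side an N-type, an R-type and a T-type gene, because in glutamatergic nuclei the N-type gene had the smallest difference between the pools and the T-type gene one of the largest. Each line is the 250 bases before the annotated start, read 5′ to 3′ on the strand of the gene, with every CG dinucleotide in capitals. The windows are chr2:24763153-24763402 (minus strand) for Cacna1b, chr1:154725921-154726170 (minus strand) for Cacna1e and chr15:80286988-80287237 (plus strand) for Cacna1i. The RefSeq start of Cacna1e lies inside the gene limits that GENCODE gives.
Cacna1b: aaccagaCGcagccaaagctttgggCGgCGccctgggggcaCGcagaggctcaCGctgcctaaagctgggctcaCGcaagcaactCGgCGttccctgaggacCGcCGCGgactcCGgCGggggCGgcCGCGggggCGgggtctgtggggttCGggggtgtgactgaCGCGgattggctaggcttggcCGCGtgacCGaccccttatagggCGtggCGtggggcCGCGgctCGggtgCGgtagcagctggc
Cacna1e: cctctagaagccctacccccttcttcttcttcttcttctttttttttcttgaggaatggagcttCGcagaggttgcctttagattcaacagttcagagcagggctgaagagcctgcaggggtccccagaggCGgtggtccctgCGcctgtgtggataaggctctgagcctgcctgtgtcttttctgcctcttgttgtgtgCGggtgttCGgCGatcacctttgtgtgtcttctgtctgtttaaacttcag
Cacna1i: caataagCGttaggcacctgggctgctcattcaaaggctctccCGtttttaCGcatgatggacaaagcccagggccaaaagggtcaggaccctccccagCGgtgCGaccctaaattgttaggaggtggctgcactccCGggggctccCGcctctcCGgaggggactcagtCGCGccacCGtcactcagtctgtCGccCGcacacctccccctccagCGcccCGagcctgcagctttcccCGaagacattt
These stretches hold 29 CG dinucleotides for Cacna1b, 6 for Cacna1e and 16 for Cacna1i. CG reads the same on both strands, and 94.6% of the 32851 promoter windows of 300 bases in the table hold at least 1, with a median of 7. In windows of that length Cacna1b had 35, Cacna1e 11 and Cacna1i 23. The table gives 3 starts for Cacna1c, with 3, 57 and 7 CG, and 2 for Cacna1d, with 4 and 63, so both L-type genes have a start rich in CG and at least 1 that is not.

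Cacna1a gave the most RNA per length of gene. Levels are UMIs scaled to the same total for each type and lane (CPM), and levels of different genes are compared per kb of gene body. In all nuclei Cacna1a was at 4.36 and 4.34 CPM per kb in saline against 3.55 and 3.53 in risperidone. The means of the 4 lanes per kb were 1.91 CPM for Cacna1c, 1.88 for Cacna1b, 1.72 for Cacna1e and 1.17 for Cacna1d. The neighbours Cacna1c and Cacna1b cannot be ordered, because Cacna1c was above Cacna1b in the saline lanes and below it in the risperidone lanes. The T-type genes gave the least, with 0.87 CPM per kb for Cacna1g, 0.731 for Cacna1i and 0.351 for Cacna1h, and together 3.97% of the UMIs of the family. Per kb of exon instead of gene body, 24 of the 28 pairs of members kept their order.

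**Figure D1:**
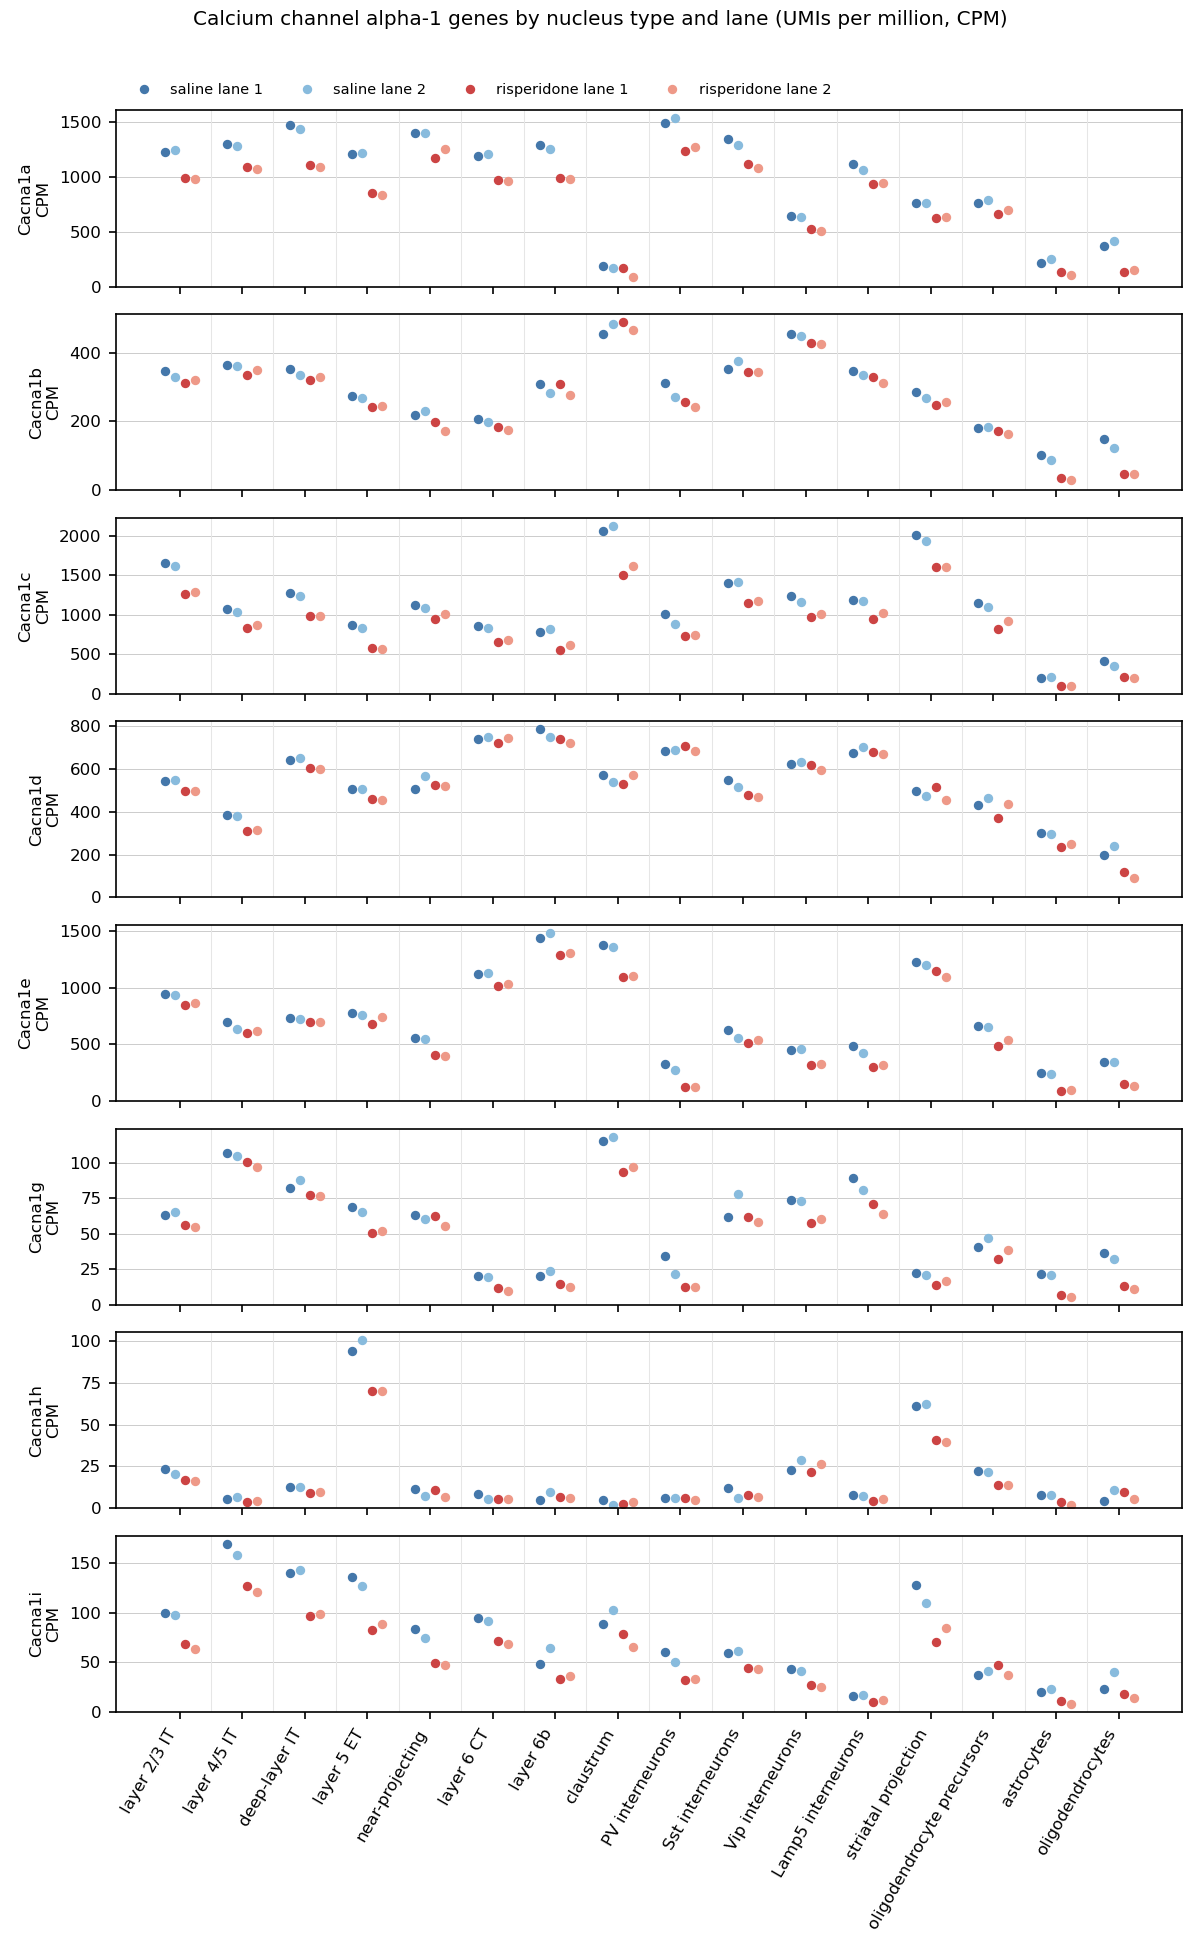
Level of each alpha-1 gene in the 4 lanes, in CPM on linear axes, with saline and risperidone lanes in separate colours. The types drawn are the layer types, the 4 interneuron classes and striatal projection neuron-like nuclei. Beside them stand oligodendrocyte precursor-like, astrocyte-like and oligodendrocyte-like nuclei. Cacna1a is highest in PV-like interneurons and lowest among neurons in claustrum-like nuclei, Cacna1e is lowest among neurons in PV-like interneurons, and Cacna1h stands out in layer 5 ET-like nuclei.

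The P/Q-type gene Cacna1a was highest in PV-like interneurons, at 1496 and 1534 CPM in the saline lanes and 1236 and 1269 CPM in the risperidone lanes. Near-projecting-like nuclei gave 1401 and 1403 against 1169 and 1256 CPM and deep-layer IT-like nuclei 1477 and 1436 CPM in saline, so the second place differed between the pools. The lanes of near-projecting-like nuclei did not overlap those of PV-like interneurons in saline but did in risperidone. With nuclei placed by their own marker UMIs, the highest type for Cacna1a was deep-layer IT. Claustrum-like nuclei were the exception among the 13 neuron types, with 191 and 167 against 170.3 and 90.1 CPM. The ratio of the highest to the lowest neuron type was 8.47 in saline and 9.62 in risperidone. Claustrum-like nuclei also had the highest level of the N-type gene Cacna1b, at 455 and 484 against 489 and 466 CPM. Cacna1b was next in Vip-like interneurons with 454 and 449 against 427 and 425 CPM, and lowest among neurons in layer 6 CT-like nuclei with 208 and 199 against 184 and 175 CPM. In risperidone the lanes of near-projecting-like nuclei, from 172 to 198 CPM, overlapped those of layer 6 CT-like nuclei. The release-channel genes thus differed in order, with claustrum-like nuclei last for one and first for the other.

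The R-type gene Cacna1e was highest in layer 6b-like nuclei, at 1437 and 1484 CPM in the saline lanes and 1286 and 1307 CPM in the risperidone lanes. Claustrum-like nuclei gave 1379.6 and 1357 against 1096 and 1101 CPM and striatal projection neuron-like nuclei 1226 and 1201 against 1143 and 1091 CPM. PV-like interneurons had the lowest level of any neuron type, 327 and 275 against 127 and 126 CPM. These values lay below those of oligodendrocyte-like nuclei, 349 and 349 against 147 and 135 CPM, a type that serves here as the level reached through RNA of other cells.

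Of the L-type genes, Cacna1c was as high in a type outside neurons as in any neuron type. Mural-like nuclei, the pericytes and smooth muscle whose tone Cav1.2 is known to serve, gave 1949 and 1916 against 1608 and 1986 CPM. They were few, 94 and 132 against 138 and 156. Their estimate of UMIs from other cells was 115% and 74.4% against 87.6% and 62.3%, so the part of their own RNA in this level is not known. Claustrum-like nuclei gave 2067 and 2128 against 1509.6 and 1619.9 CPM and striatal projection neuron-like nuclei 2012 and 1938 against 1607 and 1602 CPM. The order of these 3 types differed between the pools, so no first place can be given. Cacna1d differed least between neuron types, with a ratio of highest to lowest of 2.01 in saline and 2.35 in risperidone. It was highest in layer 6b-like nuclei (787 and 750.1 against 739 and 722 CPM) and in layer 6 CT-like nuclei (741 and 749 against 720.0 and 746 CPM), whose lanes overlap in risperidone, and lowest among neurons in layer 4/5 IT-like nuclei (386 and 378 against 310.2 and 313 CPM).

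In saline the T-type genes were each highest in another neuron type, and in risperidone Cacna1g and Cacna1i were both highest in layer 4/5 IT-like nuclei. Cacna1h was highest in layer 5 ET-like nuclei, the cells that project below the cortex, at 93.8 and 100.3 CPM in the saline lanes and 69.97 and 70.1 CPM in the risperidone lanes. Striatal projection neuron-like nuclei came next with 61.1 and 62.3 against 40.8 and 39.8 CPM. The median neuron type was at 9.12 CPM in saline and 7.34 in risperidone. Cacna1i was highest in layer 4/5 IT-like nuclei, at 169.6 and 158 CPM in the saline lanes and 127 and 121 CPM in the risperidone lanes, and lowest in Lamp5-like interneurons, at 15.8 and 17.5 against 10.4 and 12.5 CPM. Cacna1g was highest in claustrum-like (116 and 119 against 93.9 and 97.3 CPM) and layer 4/5 IT-like nuclei (107 and 105 against 101 and 97.5 CPM), and the order of these types differed between the pools. Among neurons it was lowest in layer 6 CT-like nuclei, at 19.97 and 19.4 against 11.8 and 9.82 CPM. Oligodendrocyte-like nuclei were higher in saline and overlapped them in risperidone, at 36.4 and 31.97 against 13.2 and 11.4 CPM. These levels are drawn in the plot of levels by type.

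Some low levels could not be told from RNA of other cells. A member was counted as above that level where both lanes of each pool exceeded both lanes of oligodendrocyte-like nuclei. Cacna1h did so in 4 of the 13 neuron types beside the sum of all glutamatergic nuclei. Cacna1e and Cacna1g in PV-like interneurons, Cacna1i in Lamp5-like interneurons, Cacna1a in claustrum-like nuclei and Cacna1g in layer 6 CT-like, layer 6b-like and striatal projection neuron-like nuclei did not exceed it. Astrocyte-like nuclei did so for Cacna1d alone. It was at 302 and 297 against 237 and 248 CPM in them, and at 198 and 238 against 119 and 92.2 CPM in oligodendrocyte-like nuclei. The estimate of UMIs from other cells in oligodendrocyte-like nuclei was 36.8% and 42.7% in saline against 21.8% and 23.2% in risperidone. This type held 229 and 247 saline against 462 and 522 risperidone nuclei. At the finer resolution it held 87 and 93 against 437 and 495. The level it sets thus rests, in saline more than in risperidone, on nuclei whose naming changed with the resolution.

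The share of nuclei with at least 1 UMI was compared after thinning each nucleus to 2000 UMIs, which left out 2655, 1135, 155 and 100 glutamatergic nuclei of the 4 lanes. Cacna1a was found in 87.4% and 87.1% of saline nuclei and 82.01% and 81.9% of risperidone nuclei. Its exact 95% binomial interval in saline lane 1 was 86.8 to 87.99%, and intervals here and below cover counting error only. The thinned share in oligodendrocyte-like nuclei was 57.1% and 41.4% against 21.6% and 22.4%. Cacna1i was found in 18.9% and 18.5% of saline nuclei and 14.6% and 14.1% of risperidone nuclei and Cacna1h in 4.28% and 4.35% of saline nuclei and 3.09% and 2.97% of risperidone nuclei. Oligodendrocyte-like nuclei had Cacna1i in 4.76% and 6.21% against 1.96% and 2.04%. Only 63, 145, 51 and 98 of them were deep enough, of which 0, 3, 2 and 1 held Cacna1h, so by shares Cacna1h among glutamatergic nuclei could not be set apart from background in any lane (upper limits of the exact intervals from 5.55% to 13.5%). All 8 members were lower in both risperidone lanes of the glutamatergic nuclei. Without thinning, where the risperidone nuclei were deeper, none was, and Cacna1a stood at 93.2% and 95.6% of saline nuclei and 96.5% and 97.7% of risperidone nuclei. A thinned glutamatergic nucleus held on average 4.04 and 4.01 of the 8 members in saline and 3.73 and 3.74 in risperidone. In thinned PV-like nuclei Cacna1e was found in 41.3% and 38.4% of saline nuclei and 18.02% and 18.8% of risperidone nuclei, and in oligodendrocyte-like nuclei the shares were 49.2% and 38.6% against 27.5% and 18.4%, so its share in PV-like nuclei was not above background.

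For each member the genes whose level followed it most closely over 18 types, up to 3, are given, by Pearson's r of log2(CPM + 5) in saline among 8388 genes, and r in risperidone is given beside it. All types of a pool share lanes and depth, so r is a description. Nearest to Cacna1a were Fam135b (r = 0.85 in saline and 0.84 in risperidone), N4bp2l1 (r = 0.79 in saline and 0.85 in risperidone) and Epha10 (0.79 and 0.84). Nearest to Cacna1b were Mtus2 (r = 0.90 in saline and 0.93 in risperidone), Prkar1b (r = 0.88 in saline and 0.94 in risperidone) and Syt1 (0.88 and 0.94), the last being a calcium sensor of vesicle release. Cacna1c was followed by Tmem191c (r = 0.89 in saline and 0.79 in risperidone), Fam57a (r = 0.88 in saline and 0.46 in risperidone) and Rasgef1a (0.86 and 0.87), and the r of Fam57a was much lower in the other pool. Cacna1d was followed by Mmp24 (r = 0.89 in saline and 0.82 in risperidone) and Ccdc149 (0.86 and 0.84). Nearest to Cacna1e were Gm26871 (r = 0.92 in saline and 0.95 in risperidone), Rtn1 (r = 0.89 in saline and 0.89 in risperidone) and Gm42456 (0.89 and 0.94). Among the T-type genes Cacna1g was followed by Lingo2 (r = 0.82 in saline and 0.88 in risperidone), Cyp4x1 (r = 0.77 in saline and 0.85 in risperidone) and Mrnip (0.75 and 0.58), Cacna1h by Gm10754 (r = 0.82 in saline and 0.78 in risperidone), Gprin3 (r = 0.82 in saline and 0.71 in risperidone) and Pdzd2 (0.81 and 0.76) and Cacna1i by Gm30382 (r = 0.90 in saline and 0.92 in risperidone), Phf24 (r = 0.89 in saline and 0.89 in risperidone) and Rab15 (0.88 and 0.82). No gene given here was nearest to more than 1 member, in the T-type genes as in the others.

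The comparison of risperidone with saline asks whether drug given in adolescence leaves a mark on the adult cortex. Every member was lower in the risperidone pool, in all nuclei and in glutamatergic nuclei (57513), with ratios from -0.57 to -0.14 in the latter. Ratios are log2 of risperidone over saline after scaling by TMM, with the exact 95% interval of the counts. A member is called past the fold where the ratio was at least 0.5 in size and both scaled risperidone lanes lay beyond both saline lanes. This held for 2 members in each of the 2 sets, Cacna1h and Cacna1i, both lower. Of all measured genes 4.67% were past the fold and lower in all nuclei and 4.4% higher. In glutamatergic nuclei 6.38% were lower and 4.85% higher. All 8 members had both lanes lower whatever the fold, as 44.7% of genes had in all nuclei and 44.4% in glutamatergic nuclei. The median ratio of the members was -0.33 in all nuclei and -0.36 in glutamatergic nuclei, beside 0.01 and 0.01 for all measured genes. In the sum of all nuclei a change in the shares of the types and a change per nucleus cannot be told apart. On plain CPM no member was past the fold in all nuclei and 1 in glutamatergic nuclei, beside 9.39% and 11.3% of genes in either direction. In nuclei called male none was in either set, beside 10.1% and 10.5% of genes. Without risperidone lane 2 the count in all nuclei was 1, beside 9.25%.

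**Figure D2:**
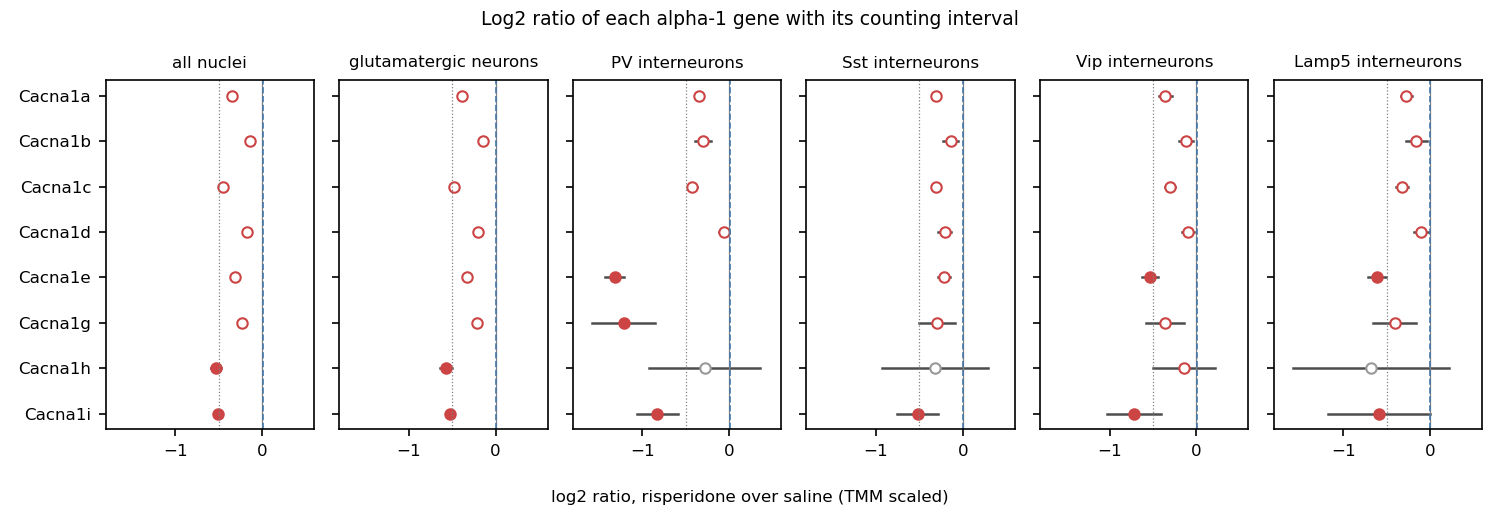
Log2 ratio of risperidone over saline (TMM scaled) for each alpha-1 gene, in panels for all nuclei, glutamatergic nuclei and the 4 interneuron classes, with exact 95% counting intervals as bars. Filled points are past the fold, grey points were under 10 CPM, the dotted line marks -0.5 and the dashed line the median of all measured genes. All points lie below 0 with this scaling (Cacna1d in PV-like interneurons is at 0.02 on plain CPM), with Cacna1e and Cacna1g in PV-like interneurons farthest from it.

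Among the release-channel genes of glutamatergic nuclei, Cacna1a was at 1193 and 1181 CPM in the saline lanes and 955 and 939.6 CPM in the risperidone lanes. The lanes of the pools did not overlap, and the ratio was -0.39 (-0.40 to -0.38). Cacna1b, its N-type counterpart, was at 327 and 319 against 304 and 306 CPM, a ratio of -0.14 (-0.16 to -0.13) and the smallest of the family in size. The R-type gene Cacna1e was at 1031 and 1025 against 845 and 862 CPM, with a ratio of -0.33 (-0.34 to -0.32). The intervals of the 3 genes do not overlap, so that beyond counting error the difference was smaller for Cacna1b than for Cacna1e, and smaller for Cacna1e than for Cacna1a.

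The L-type genes also differed from each other. Cacna1c, the longest gene of the family, was at 1379 and 1355 CPM in the saline lanes and 1009 and 1029 CPM in the risperidone lanes, a ratio of -0.48 (-0.49 to -0.47) that stayed short of the threshold. Cacna1d was at 567 and 569 against 515 and 515 CPM with a ratio of -0.21 (-0.22 to -0.19). The saline lanes of each gene lay close together and above both risperidone lanes. Of the T-type genes, Cacna1h, the least abundant, was at 25.3 and 24.3 against 17.6 and 17.2 CPM with a ratio of -0.57 (-0.64 to -0.50). Cacna1i was at 109 and 108 against 79.2 and 77.7 CPM with a ratio of -0.53 (-0.56 to -0.50). Cacna1g was at 66.1 and 66.8 against 60.5 and 59.00 CPM with a ratio of -0.22 (-0.26 to -0.18). Cacna1h and Cacna1i thus had larger differences than Cacna1g, whose interval lies apart from theirs. With the clusters of the class weighted equally, however, Cacna1g stood at -0.48 and Cacna1h at -0.38, short of the threshold. The order of Cacna1g and Cacna1h therefore depended on the weight of the clusters. The sum of the 8 genes in all nuclei was 4411 and 4359.8 CPM in saline and 3583 and 3619.9 CPM in risperidone.

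PV-like interneurons (3096 nuclei) held the largest differences of the 4 interneuron classes. Cacna1e was at 327 and 275 CPM in the saline lanes and 127 and 126 CPM in the risperidone lanes, a ratio of -1.32 (-1.43 to -1.21). Cacna1g was at 34.5 and 21.4 against 12.5 and 12.5 CPM, a ratio of -1.22 (-1.58 to -0.86). In both genes the saline lanes lay wholly above the risperidone lanes, but neither exceeded the level in oligodendrocyte-like nuclei, and the estimated share of UMIs from other cells was higher in the saline lanes as well. The part of such RNA in these ratios was not tested, and the ratios with its estimate taken out are given below. Cacna1i was at 60.2 and 50.3 against 31.9 and 33.3 CPM, a ratio of -0.83 (-1.06 to -0.59), and stood above the oligodendrocyte level in each pool. The P/Q-type gene Cacna1a, which drives release from PV terminals, was at the levels given above with a ratio of -0.35 (-0.39 to -0.31). Cacna1d had a ratio of -0.06 (-0.12 to -0.01), and on plain CPM its risperidone lanes (704 and 685) were not below its saline lanes (684 and 687), so its direction depended on the scaling. Of the 7 members measured at a mean of 10 CPM or more, 3 were past the fold and lower, beside 9.64% of genes lower and 8.23% higher. All 7 had both lanes lower, as 34.4% of genes had, and the median ratio was -0.43 beside 0.01. With the estimated RNA of other cells taken out, 1 member was past the fold in place of 3, and 6 were measured. Of all genes 14.9% were then past the fold in either direction. The ratios were then -2.79 for Cacna1e and -1.66 for Cacna1g. The removal set negative remainders to 0, so these 2 ratios can rest on small remainders. With nuclei placed by their own marker UMIs, Cacna1e stood at -0.31 and Cacna1g at -0.51, and 2 members were past the fold, beside 9.16% of genes. These ratios therefore depended on how the class was set.

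In Sst-like interneurons (2489 nuclei) Cacna1i alone was past the fold, at 59.9 and 61.1 against 44.2 and 43.3 CPM with a ratio of -0.52 (-0.75 to -0.28), where 7.37% of genes were lower and 7.02% higher. In Vip-like interneurons (2533) Cacna1e, at 452 and 461 against 316 and 331 CPM, had a ratio of -0.53 (-0.62 to -0.44). Cacna1i there was at 43.1 and 41.3 against 27.6 and 25.1 CPM, a ratio of -0.72 (-1.03 to -0.41). These 2 were past the fold, beside 6.89% of genes lower and 6.75% higher. In Lamp5-like interneurons (1633) the same 2 genes were past the fold, Cacna1e at 489.6 and 427 against 299.6 and 321 CPM with a ratio of -0.61 (-0.72 to -0.50) and Cacna1i at 15.8 and 17.5 against 10.4 and 12.5 CPM with -0.59 (-1.18 to 0.00). There 7.08% of genes were lower and 8.26% higher. Cacna1i in Lamp5-like nuclei did not exceed the oligodendrocyte level, and UMIs from other cells made up 49.5% and 48.1% in saline against 30.3% and 27.2% in risperidone. The other measured members of the 3 classes had ratios between -0.41 and -0.09. In each class 7 members had both lanes lower, as 32% of genes had in Sst-like, 30.8% in Vip-like and 28.8% in Lamp5-like interneurons. Cacna1i was the 1 member past the fold in all 4 classes. After removal of the estimated RNA of other cells, none was past the fold in Sst-like and Vip-like interneurons, and Cacna1e in Lamp5-like interneurons turned to 2.22. The removal subtracted these shares of the profile of all nuclei in a lane and set negative remainders to 0. That ratio can therefore rest on small remainders. On plain CPM the count was 0 in Sst-like and 1 in Vip-like interneurons, and without risperidone lane 1 it was 1 in Vip-like and in Lamp5-like interneurons.

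**Figure D3:**
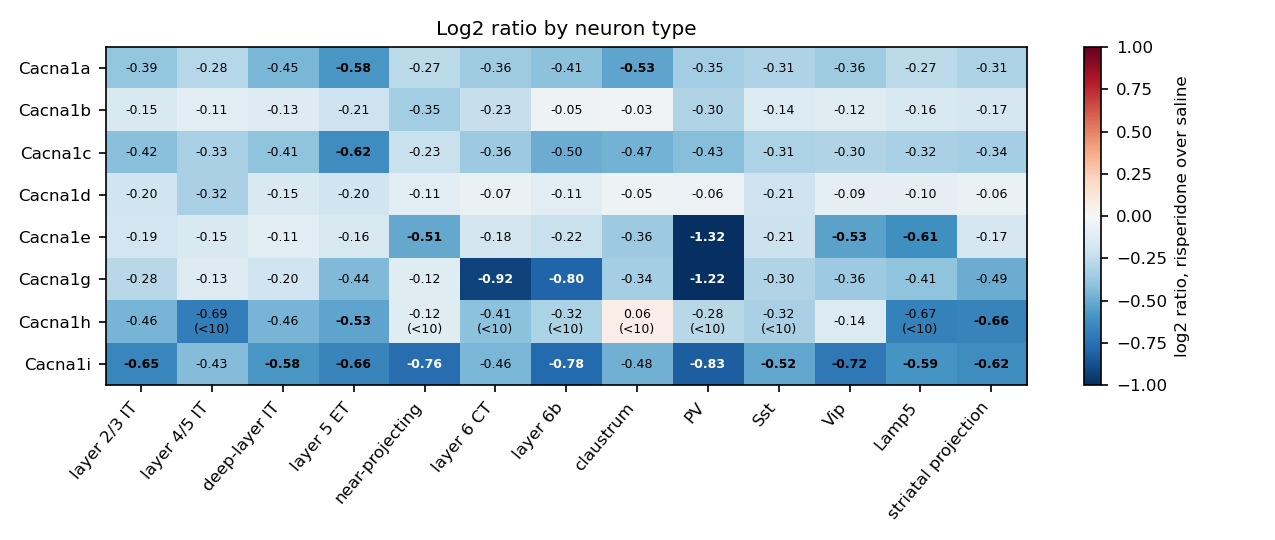
Heat map of the log2 ratio of risperidone over saline for each alpha-1 gene in the 13 neuron types, with the ratio printed in each cell, in bold where past the fold and with (<10) where the mean was under 10 CPM; colours end at 1 in either direction. The cells of Cacna1i are low in every type. Those of Cacna1b and Cacna1d have the medians closest to 0, though they are not the closest in every type.

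Across the layer types the T-type gene Cacna1i was past the fold in 5 of 8, and in 10 of 13 neuron types in all, with a median ratio over the 13 of -0.62 and a range from -0.83 to -0.43. The 3 neuron types short of the threshold were layer 4/5 IT-like, layer 6 CT-like and claustrum-like nuclei. In layer 2/3 IT-like nuclei it was at 100.3 and 97.4 against 68.2 and 63.5 CPM, with a ratio of -0.65 (-0.72 to -0.59), where 12.5% of genes were past the fold in either direction. At the finer resolution these nuclei fell mostly in 2 clusters that divided by pool, the first with 355 and 449 saline against 3863 and 3569 risperidone nuclei and the second with 3320 and 3179 against 214 and 177, so the values of this type come from different clusters in the pools. In deep-layer IT-like nuclei the ratio was -0.58 (-0.66 to -0.51), beside 11.4%. No member was past the fold in layer 4/5 IT-like nuclei, where 10% of genes were.

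Layer 5 ET-like nuclei (2485) had 4 members past the fold, more than any other neuron type, beside 16.9% of all genes. These were Cacna1i with a ratio of -0.66 (-0.78 to -0.54), the L-type gene Cacna1c with -0.62 (-0.67 to -0.57), Cacna1a with -0.58 (-0.62 to -0.54) and Cacna1h, which is most abundant there, with -0.53 (-0.66 to -0.39). Cacna1c was at 877 and 834 CPM in the saline lanes and 581 and 573 CPM in the risperidone lanes. Cacna1a was at 1211 and 1214 against 852 and 833 CPM, with the lanes of the pools well apart. Cacna1e was at 777 and 757 against 681 and 739.6 CPM with a ratio of -0.16 (-0.20 to -0.11), so the size differed between members beyond counting error.

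Near-projecting-like nuclei had 2 members past the fold, beside 21.6% of genes, namely Cacna1e at 554 and 546 against 404 and 399 CPM with a ratio of -0.51 (-0.65 to -0.37) and Cacna1i with -0.76 (-1.16 to -0.37). In layer 6 CT-like nuclei Cacna1g was past the fold with -0.92 (-1.17 to -0.68), beside 11.1% of genes. In layer 6b-like nuclei Cacna1g with -0.80 (-1.34 to -0.28) and Cacna1i with -0.78 (-1.11 to -0.46) were past it, beside 18.6%. Cacna1g did not exceed the oligodendrocyte level in these 2 types. In claustrum-like nuclei Cacna1a had a ratio of -0.53 (-0.71 to -0.34), beside 16.6% of genes, but its lanes overlap on plain CPM, as the values above show, and it too was not above that level. Striatal projection neuron-like nuclei had Cacna1h with -0.66 (-0.91 to -0.42) and Cacna1i with -0.62 (-0.79 to -0.45) past the fold, beside 14.6%. Both exceeded the oligodendrocyte level in each pool.

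Cacna1b and Cacna1d were past the fold in none of the 13 neuron types, with median ratios of -0.15 and -0.11. Their lanes were apart in 11 and 10 types. Of all measured genes, 53.3% (near-projecting-like) to 84.6% (layer 2/3 IT-like) had lanes apart in either direction in these types. No member was past the fold and higher in a neuron type, and after scaling all members measured at 10 CPM or more were lower in each of the 13. The median ratio of all measured genes lay between 0.003 (claustrum-like) and 0.013 (PV-like) in these types. On plain CPM the ratio was above 0 for Cacna1b in claustrum-like nuclei and for Cacna1d in PV-like interneurons, 0.02 in each. Among the layer types, the calls lost on plain CPM were Cacna1h in layer 5 ET-like nuclei at -0.47, Cacna1e in near-projecting-like nuclei at -0.45 and Cacna1a in claustrum-like nuclei at -0.48. In oligodendrocyte precursor-like nuclei Cacna1i had a ratio of 0.03 (-0.34 to 0.40), with 37.03 and 41.2 against 47.2 and 37.4 CPM and overlapping lanes. In microglia-like nuclei Cacna1d had a ratio of 0.996 (0.08 to 2.06), which rests on 11 UMIs in 15 saline nuclei. The median ratio of all genes there was 0.49, and on plain CPM the lanes overlapped, with 569 and 132 against 490 and 515. In mural-like nuclei Cacna1c had a ratio of -0.23 (-0.35 to -0.12), with the limits of that type given above.

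GABAergic nuclei that could be given to none of the 4 interneuron classes (3039 nuclei) had all 8 members lower with lanes apart after scaling, as were 32.8% of all measured genes. Of them Cacna1a and Cacna1i were past the fold, as were 7.23% of all measured genes in that direction, but on plain CPM both stood at -0.44, short of the threshold, and Cacna1e at 0.002. The T-type gene Cacna1h was at 37.95 and 35.9 against 37.3 and 30.98 CPM there, which overlap before scaling, with a log2 ratio of -0.20 (-0.46 to 0.05). The median ratio of the 8 members was -0.19, beside 0.01 for all measured genes. Astrocyte-like nuclei gave members at a low level in both pools, with a median ratio of -1.32 beside 0.01. Oligodendrocyte-like nuclei, taken as the level of RNA from other cells, had a median of -1.37 and 7 of 7 members past the fold and lower, beside 18.7% of all measured genes. In astrocyte-like nuclei it was 6 of 7, beside 13% of all measured genes. Cacna1d, the 1 member there above the level of oligodendrocyte-like nuclei, had a ratio of -0.35 (-0.47 to -0.23), and Cacna1b, which was below it, -1.62 (-1.91 to -1.34).

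**Figure D4:**
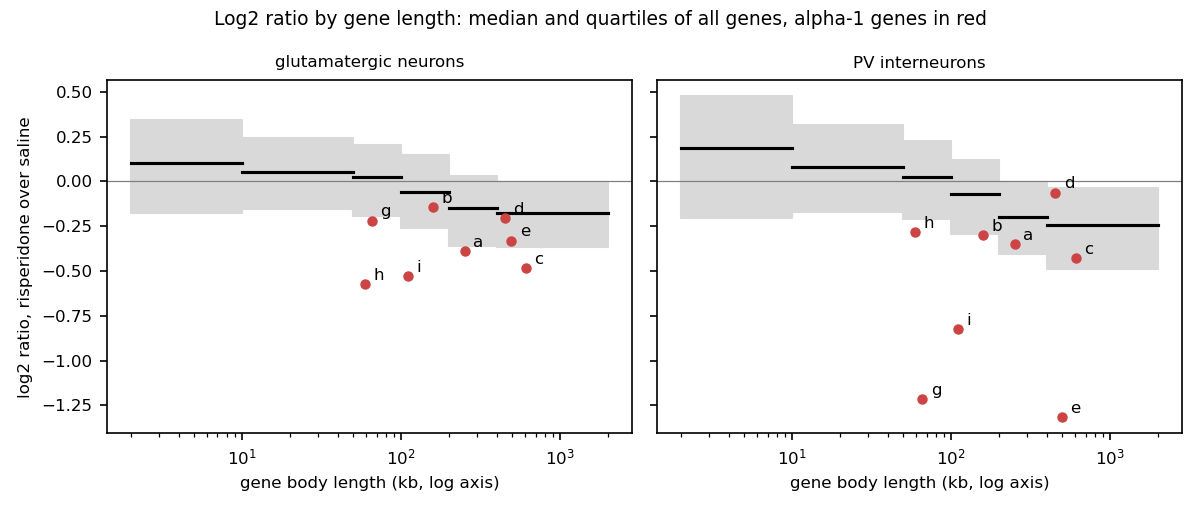
Log2 ratio of risperidone over saline against gene body length in kb (log axis), for glutamatergic nuclei and PV-like interneurons. Black lines and grey boxes give the median and the quartiles of all measured genes of a length class, and red points are the alpha-1 genes, marked by the last letter of their names. The medians go down with length, and in glutamatergic nuclei all 8 points lie below the median of their class.

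Long genes were lower in the risperidone pool in general. In glutamatergic nuclei the median ratio was 0.10 for genes under 10 kb, 0.02 from 50 to 100 kb, -0.06 from 100 to 200 kb, -0.15 from 200 to 400 kb and -0.18 from 400 kb on, where 75.2% of genes were lower. Cacna1c, Cacna1d and Cacna1e belong to the longest class, whose middle part ran from -0.37 to 0.00. Cacna1d and Cacna1e lay inside that range and Cacna1c below it. Cacna1a, with 200 to 400 kb, lay below the range of its class, -0.36 to 0.03. Cacna1b and Cacna1i share the class from 100 to 200 kb, -0.26 to 0.15, with Cacna1b inside and Cacna1i below. Cacna1g and Cacna1h, from 50 to 100 kb, both lay below -0.20. The part of length in the members' ratios was not tested.

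Both sexes were in each pool, so ratios were also taken in nuclei called female or male by their Xist and Y-linked UMIs. In glutamatergic nuclei Cacna1c had a ratio of -0.65 (-0.66 to -0.64) in nuclei called female and -0.24 (-0.26 to -0.22) in nuclei called male. Cacna1a had -0.50 (-0.52 to -0.49) and -0.24 (-0.26 to -0.22). The intervals lie apart, but each condition had 1 pool, RNA of other cells enters the calls, and more nuclei were called female in risperidone. Cacna1i differed less, with -0.59 (-0.64 to -0.54) and -0.43 (-0.50 to -0.36). Cacna1b went the other way, with -0.11 (-0.14 to -0.09) and -0.17 (-0.20 to -0.13), whose intervals overlap. In all nuclei Cacna1g was lower in nuclei called female, -0.32 (-0.37 to -0.27), and its lanes overlapped in nuclei called male, 0.01 (-0.06 to 0.08).

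The partners of the channels were counted in 58 genes. In glutamatergic nuclei 46 were measured, of which 1 was past the fold and higher and 4 lower, beside the 4.85% and 6.38% of all genes given above, and the median ratio was -0.09 beside 0.01. Calm2, which encodes calmodulin, the calcium sensor bound to the channels, was higher at 73.1 and 73.1 against 155 and 149 CPM, a ratio of 0.99 (0.96 to 1.02). The ryanodine receptor gene Ryr1, which releases stored calcium, was lower at 41.02 and 41.8 against 20.6 and 20.9 CPM, a ratio of -1.06 (-1.12 to -1.001). Kcnn3, a potassium channel opened by calcium, was lower at 59.6 and 59.7 against 30.98 and 30.9 CPM, a ratio of -1.01 (-1.06 to -0.96). Cacng7 and Cacng8, of the gamma family and known mainly as partners of AMPA receptors, were the other 2, Cacng8 with -0.54 (-0.58 to -0.50). None of the 4 beta genes, 10 release-site genes or 4 leak-channel genes was past the fold there, and 2 of 4 alpha2delta genes were measured, neither past it. The other pore genes, Cacna1f and Cacna1s, were under 10 CPM.

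In PV-like interneurons 47 of the 58 partners were measured, 3 past the fold and higher and 9 lower, beside 8.23% and 9.64% of all genes, with a median of -0.27 beside 0.01. The alpha2delta gene Cacna2d1 was at 283 and 222 against 127 and 104 CPM, a ratio of -1.21 (-1.33 to -1.10). Cacna2d3 was at 476 and 371 against 261 and 213 CPM, a ratio of -0.92 (-1.01 to -0.84). Cacna2d2, the third alpha2delta gene measured, had a ratio of -0.04 (-0.13 to 0.05). The others lower were Cacng2, Cacng3, Stx1a, Ryr1, Ryr3, Atp2b4 and Slc8a2, and those higher included Atp2a2, the pump that fills calcium stores, and Calm2. The estimated share of UMIs from other cells was higher in the saline lanes of this class and of glutamatergic nuclei. Its part in the ratios of the partners was not tested, and the partners were not set beside the oligodendrocyte level. In all nuclei 1 was higher and 5 lower of 50, beside 4.4% and 4.67% of all genes. The counts were 1 and 7 of 50 in Sst-like interneurons (7.02% and 7.37% of all genes), 1 and 8 of 51 in Vip-like (6.75% and 6.89%) and 2 and 6 of 47 in Lamp5-like interneurons (8.26% and 7.08%). Calm2 was higher in all 6 sets.

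Genes on the opposite strand overlap some members. Gm16183, an antisense RNA gene inside Cacna1a on chromosome 8 from 84611202 to 84617184, was at 12.6 and 11.9 against 46.8 and 39.1 CPM in all nuclei, a ratio of 1.75, opposite in direction to Cacna1a. Dcp1b and Dcp1a, which overlap the starts of Cacna1c and Cacna1d, had ratios of 0.02 and -0.01. Gm16183 was chosen after its values were seen.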

How the data were processed

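Single-nucleus RNA was measured in 4 lanes, 2 from each pool. Reads were processed by the authors in Cell Ranger 8.0.1 on mm10, and they deposited, per lane, the UMI count of each gene in each nucleus, without normalization. Nothing in the deposited counts was changed, and no column belonged to another series. Nuclei were kept from 500 genes upwards if mitochondrial UMIs did not pass 5%, and those resembling simulated doublets (9.38 to 12.0% per lane) were removed, which left 96553 nuclei. Counts were scaled to 10000 per nucleus, and 2000 variable genes, 30 components, 20 neighbours and Louvain resolution 0.5 gave 33 clusters (39 at resolution 1.0). Clusters were named from marker lists, with thresholds set after the clusters' marker levels had been seen.

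UMIs were summed per type and lane, and TMM factors were taken from edgeR 4.0.16 in R 4.3.3, over genes whose 4 lanes averaged 10 CPM or more. Counting intervals are exact at 95% confidence (Poisson, Clopper-Pearson, and binomial conditional on the sum for ratios). Python 3.11.15, numpy 2.4.6, scipy 1.17.1, igraph 0.11.9 and matplotlib 3.10.9 were used, with seed 1. The procedure was tested on simulated data. All 8 members are named, with the 3 genes nearest to each in pattern (among genes with at least 20 CPM in a type) and partner genes by list, of which a few are not reported here. The members, lists, markers and alternatives were chosen with earlier results of these data known. Alternatives were plain CPM, DESeq2 1.42.0 size factors, other count minimums, each lane left out, doublets kept, another resolution, other naming, RNA of other cells taken out and the sexes apart. Of the gene identifiers, 99.6% were found in GENCODE vM21.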

Additional observations from a re-analysis of the deposited data

Results flagged for a closer look

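In PV-like interneurons the L-type gene Cacna1d differed in direction between nuclei called female, with a log2 ratio of risperidone over saline of -0.13 (-0.22 to -0.05), and nuclei called male, with 0.14 (0.03 to 0.25). The scaled lanes were apart in each, but on plain CPM those of nuclei called female overlapped, with 684 and 711 against 695 and 671. In Lamp5-like interneurons the N-type gene Cacna1b had -0.35 (-0.53 to -0.17) in nuclei called female and 0.10 (-0.14 to 0.34) in nuclei called male, each with its lanes apart, and the second interval includes 0. Neither difference between the sexes was tested, because each condition was 1 pool.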

How the results depend on the processing

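The number of members past the fold moved under several alternatives. The share of all measured genes past the fold in either direction is given in brackets beside each count. With the main settings it was 9.07% in all nuclei, 11.2% in glutamatergic nuclei and 17.9% in PV-like interneurons. For Sst-like, Vip-like and Lamp5-like interneurons it was 14.4%, 13.6% and 15.3%. Plain CPM put the median log2 ratio of all genes at 0.05 to 0.09 in the 6 sets, beside 0.01 with TMM. The count on plain CPM was 0 of the 8 in all nuclei (9.39%) and 1 in glutamatergic nuclei (11.3%), against 2 and 2. It was 0 in Sst-like (14.7%) and 1 in Vip-like interneurons (14.0%), against 1 and 2. With at least 50 CPM required, which also refits the scaling, Cacna1h was left out in all 6 sets. In PV-like, Sst-like and Lamp5-like interneurons it had been under 10 CPM already. Cacna1i was also left out in PV-like, Vip-like and Lamp5-like interneurons, and Cacna1g in PV-like interneurons. The ratio of Cacna1i moved short of the threshold in all nuclei, glutamatergic nuclei and Sst-like interneurons, as did that of Cacna1e in Vip-like interneurons. The count was 0 in all nuclei (6.36%), glutamatergic nuclei (8.12%) and Sst-like (8.07%) and Vip-like interneurons (6.7%). It was 1 in PV-like (12.4%) and Lamp5-like interneurons (7.47%). With RNA of other cells taken out it was 1 in PV-like and 0 in Sst-like and Vip-like interneurons. Cacna1e in Lamp5-like interneurons then turned from -0.61 to 2.22, a ratio that can rest on small remainders. In nuclei called male the count was 0 in all nuclei (10.1%) and in glutamatergic nuclei (10.5%) and 1 in Vip-like (22.0%) and Lamp5-like interneurons (22.6%). In nuclei called female it was 4 in glutamatergic nuclei (14.6%) and 0 in Sst-like interneurons (21.7%). With doublet-like nuclei kept it was 1 in Vip-like (12.1%) and Lamp5-like interneurons (13.3%). With nuclei of at least 2000 UMIs it was 0 in Sst-like (14.5%) and 1 in Lamp5-like interneurons (15.6%). With nuclei placed by their own marker UMIs it was 2 in PV-like (9.16%) and 1 in Lamp5-like interneurons (17.6%). With each lane left out in turn, it ranged from 1 to 2 in all nuclei (8.89 to 9.36%) and 2 to 3 in glutamatergic nuclei (11.0 to 11.6%). It ranged from 3 to 4 in PV-like (18.0 to 21.9%), 1 to 2 in Vip-like (15.7 to 16.5%) and 1 to 2 in Lamp5-like interneurons (16.8 to 21.3%). The members with a lower share of nuclei with a UMI in risperidone numbered 8 thinned and 0 unthinned. Other causes were not tested.

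Of the single values, 735 stayed within their range, 245 moved beyond it and 1 ratio past the fold changed sign. For a ratio the range was its counting interval. For a level it was the standard deviation over the lanes of both pools. Among the types present in both settings, which leaves out layer 6b-like nuclei, where Cacna1d and Cacna1e were highest, the type with the highest level was the same for 8 of 8 members at resolution 1.0 and for 6 of 8 with nuclei placed by their own markers. Equal weighting of clusters was not run for classes of 1 cluster, nor placement by own markers for Vip-like interneurons (69 nuclei). No paired analysis was possible because the lanes are technical runs of 1 pool per condition and share only a number. Depth limits Cacna1h, which was under 10 CPM in most types.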
